A study of Mus musculus with 21 samples.

Results

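Collagens are the proteins that give tissue its tensile strength, and each molecule winds 3 alpha chains, alike or different, into a triple helix. The rows of the authors' deposited expression table with a collagen chain symbol numbered 44. The 6 type IV chains, which form the sheet of the basement membrane, were set aside. The remaining 38 genes, in 26 collagen types and of 22135 genes in all, are described here across 7 groups of cultured mouse cells with 3 libraries each. The rule for this choice used gene names and no measured values, although earlier results of these data were known when it was made. All 38 had values in FPKM, a measure of fragments relative to transcript length and library size, and since this unit corrects for length, levels of different chains can be set side by side.

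The groups were peritubular myoid cells (PTM), which surround the seminiferous tubule, and Sertoli, Leydig and germ cells of the testis, and 3 kinds of smooth muscle cell, vascular (VSMC), intestinal (ISMC) and tracheal (TSMC). All were labelled as primary cells of C57BL/6J mice, were untreated, and grew in DMEM/F12 medium with 10% fetal bovine serum, and the labels give no age, sex or allele. For the testicular cells the labels cite isolation methods, while the 3 smooth muscle types were bought from Procell, so that tissue and supplier cannot be told apart where PTM is set against smooth muscle. The study set PTM against each of the other groups, and differences below are PTM minus the other group unless stated. The labels do not say that the 3 libraries of a group are separate cultures or animals, so a p-value here reflects library-to-library spread that may be only technical. In such bulk RNA, fewer cells of a type and less RNA per cell cannot be told apart.

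Fibrillar collagens (such as types I, II, III, V and XI) assemble into the banded fibrils of connective tissue, in which types V and XI sit inside and limit the fibril's width. Type VI forms beaded filaments around cells, types VIII and X form open networks, and the FACIT collagens (fibril-associated collagens with interrupted triple helices, such as XII, XIV and XVI) decorate fibrils. The multiplexins XV and XVIII lie next to basement membranes, and endostatin is cut from type XVIII. In the testis, the peritubular wall that PTM cells build holds fibrillar collagen together with the basement membrane shared with Sertoli cells.

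The start regions of 4 chains are shown: Col6a1 and Col6a2, neighbours whose chains share a molecule, and the network chains Col8a1 and Col10a1, which were lower in PTM than in each smooth muscle group. Each line gives the 250 bases before the RefSeq start of the mouse gene, 5′ to 3′ on the strand of the gene, on build GRCm38.p6. The TATA motif TATAAA, the CCAAT motif and the GC box motif GGGCGG were searched on both strands. Capitals mark a match on either strand, so that CCGCCC marks a GC box of the other strand.
Col6a1: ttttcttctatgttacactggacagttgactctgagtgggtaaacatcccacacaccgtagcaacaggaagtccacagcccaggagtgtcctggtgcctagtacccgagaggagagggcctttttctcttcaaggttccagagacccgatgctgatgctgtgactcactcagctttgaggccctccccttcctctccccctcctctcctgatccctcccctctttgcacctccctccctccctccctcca
Col6a2: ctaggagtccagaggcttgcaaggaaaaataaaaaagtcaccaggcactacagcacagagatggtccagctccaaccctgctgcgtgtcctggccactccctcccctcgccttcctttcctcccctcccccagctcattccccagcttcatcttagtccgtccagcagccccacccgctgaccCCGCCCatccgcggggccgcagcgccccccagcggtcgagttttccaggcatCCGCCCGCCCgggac
Col8a1: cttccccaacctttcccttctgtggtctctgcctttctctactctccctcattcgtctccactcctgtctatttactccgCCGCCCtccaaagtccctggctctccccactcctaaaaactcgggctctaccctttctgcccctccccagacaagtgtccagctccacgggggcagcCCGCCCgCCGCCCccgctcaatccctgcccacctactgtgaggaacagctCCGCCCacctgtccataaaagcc
Col10a1: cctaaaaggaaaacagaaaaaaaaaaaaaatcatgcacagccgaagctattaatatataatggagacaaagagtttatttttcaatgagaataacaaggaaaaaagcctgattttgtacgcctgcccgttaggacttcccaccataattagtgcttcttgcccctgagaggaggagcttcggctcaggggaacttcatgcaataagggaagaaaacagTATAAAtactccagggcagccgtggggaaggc
The windows are chr10:76726045-76726294 and chr10:76623405-76623654, both on the minus strand, chr16:57754738-57754987 on the minus strand and chr10:34389731-34389980 on the plus strand. Col10a1 holds a TATAAA that begins 32 bases before the start and no GGGCGG. Col8a1 holds 4 GGGCGG matches, which begin 170, 73, 66 and 23 bases before the start. Col6a2 holds 3, at 67, 15 and 11 bases, the last pair overlapping each other, whereas the neighbouring Col6a1 holds none of the 3 motifs. Of 32851 mouse promoters in the RefSeq table, 12.4% held TATAAA, 33.8% CCAAT and 32.7% GGGCGG in the same window. Among the 30 of 38 collagen chains matched to that table, 5 held TATAAA, 9 CCAAT and 18 GGGCGG. These matches describe letters and say nothing of binding.

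The marker genes of each label were checked first. Smooth muscle markers (Acta2, Myh11, Cnn1, Tagln and Des) summed to 2986 to 3446 FPKM in PTM libraries and to 4229 to 4749 in the smooth muscle libraries, but to 8094 to 11270 in Sertoli libraries, which goes against that label. Leydig libraries had 627.3 to 1263 FPKM of them and germ cell libraries 2.65 to 7.5. PTM libraries also held Leydig markers at 2335 to 4960 FPKM, against 1096 to 7206 in Leydig libraries, with Cyp17a1 at or near 0 in both. They held Sertoli markers at 158.1 to 645.3 FPKM, against 196.3 to 352.9 in Sertoli libraries. Libraries were correlated by Pearson's r of log2(FPKM + 1) over the 14444 genes that reached 1 FPKM in 3 or more libraries. Replicate 2 stood apart in PTM, at 0.9832 and 0.9895 to the other PTM libraries, which correlated at 0.9974 with each other. Sertoli replicate 2 stood further apart, at 0.9717 and 0.9797 against 0.9972, and germ cell replicate 2 slightly, at 0.9936 and 0.9939 against 0.9983. The part of these markers in the collagen values was not tested, while each library was left out in turn and, for the genes named with a test, calls that changed without 1 library are given beside them. An estimate from the smallest FPKM steps put depth at 17900000 to 20600000 fragments per library, at which 1 FPKM of a collagen chain stands for 52 to 229 fragments.

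The 38 chains together made up 0.157 ± 0.0154% of all FPKM in PTM (SD, n = 3 libraries), 0.307 ± 0.0918% in Sertoli, 0.782 ± 0.160% in Leydig and 0.0154 ± 0.00169% in germ cells. In the smooth muscle groups the share was 1.07 ± 0.0471% in VSMC, 0.951 ± 0.0356% in ISMC and 0.996 ± 0.0204% in TSMC. Every PTM library lay below every library of Sertoli, Leydig and smooth muscle cells and above every germ cell library. In PTM, type I made up 49.5 ± 4.72% of the collagen FPKM, type III 19.4 ± 5.82% and type V 18.1 ± 1.38%. Type III took 39.5 ± 3.54% in Leydig and 6.74 ± 0.909% in Sertoli, while VSMC had 1.64 ± 0.123%, ISMC 1.54 ± 0.0381% and TSMC 2.72 ± 0.0576%. Germ cells had another make-up, with 68.01 ± 1.74% in FACIT chains and 2.27 ± 1.63% in type I.

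**Figure D1:**
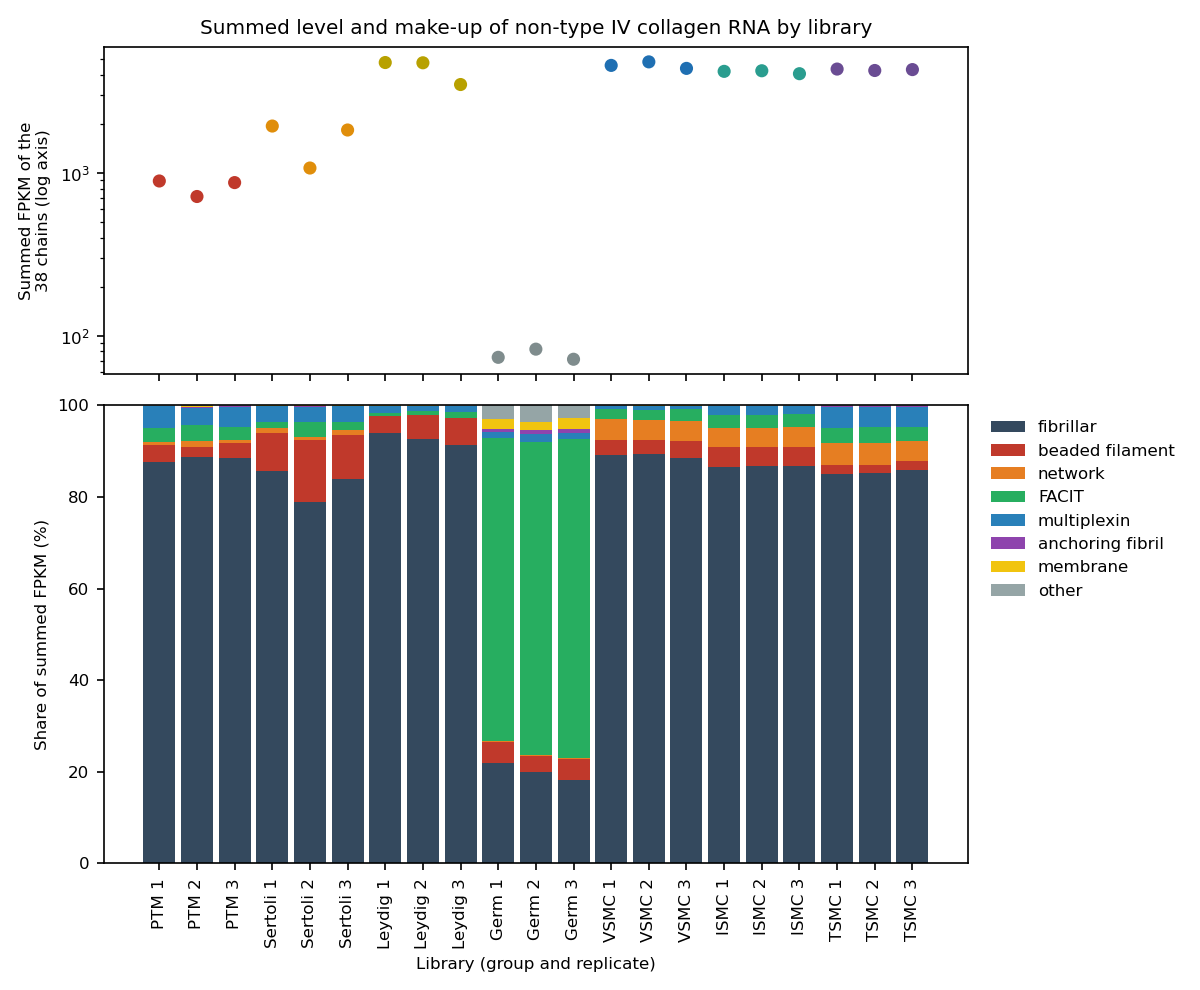
Upper panel: FPKM summed over the 38 chains in each library, on a log axis, coloured by group. Lower panel: share of that sum in each collagen class (%). PTM libraries lie at 717 to 893 FPKM, between germ cells (71.6 to 82.6 FPKM) and the other groups, and FACIT chains fill most of the germ cell bars.

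Not every chain was active. By highest group mean, 18 chains reached 10 FPKM or more, 6 lay between 3 and 10, 4 between 1 and 3, and 10 under 1. The 18 were highest in VSMC for 6 chains (Col1a1, Col1a2, Col2a1, Col5a1, Col6a3 and Col8a1) and in TSMC for 5 (Col5a2, Col10a1, Col11a1, Col12a1 and Col18a1). They were highest in Leydig cells for 4 (Col3a1, Col6a1, Col6a2 and Col16a1), and in Sertoli (Col15a1), ISMC (Col14a1) and germ cells (Col22a1) for 1 each. None of the 18 had its highest mean in PTM. These are orders of means. By the tests described below, only Col3a1, Col10a1, Col12a1, Col18a1 and Col22a1 were called higher in that group than in the group with the next highest mean. None of the chains highest in VSMC was called apart from ISMC. At 10 FPKM or more in all 3 libraries, PTM held 8 chains, Sertoli 10, Leydig 11, germ cells 2, VSMC 17, ISMC 17 and TSMC 16.

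**Figure D2:**
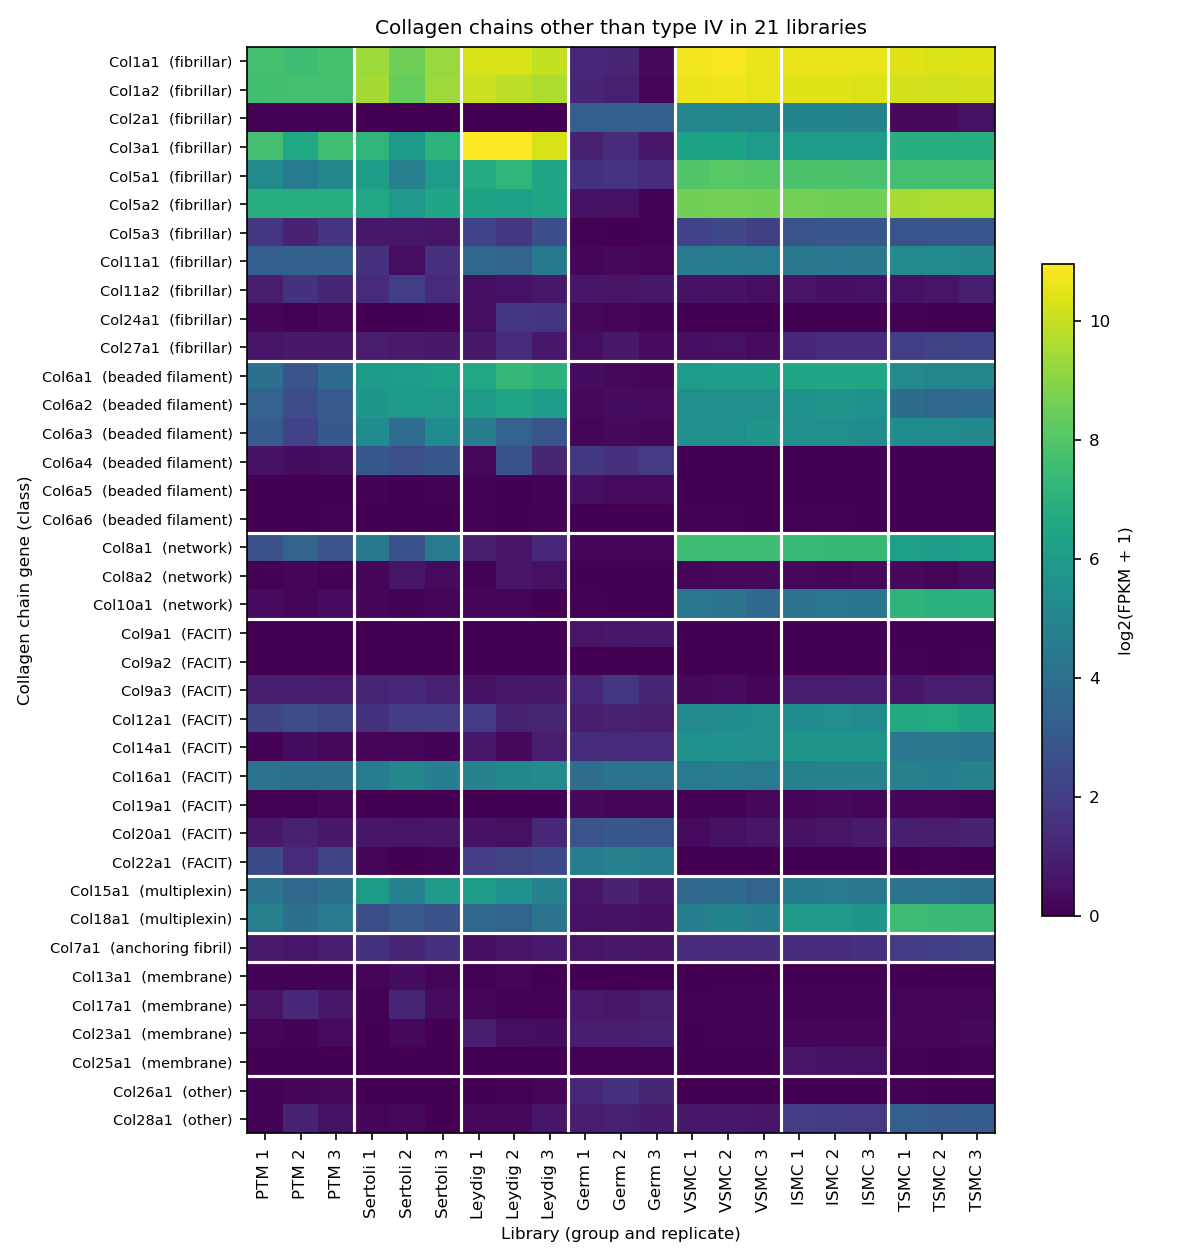
Level of each of the 38 chains (rows, by class) in each of the 21 libraries (columns, by group and replicate), as log2(FPKM + 1). Type I chains are bright in all somatic groups and dark in germ cells, Col3a1 is brightest in Leydig cells, and Col10a1 is bright in the smooth muscle groups.

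Tests used log2(FPKM + 1) in one limma model over the 21 libraries and the 14444 genes that reached 1 FPKM in 3 or more of them. A gene was called where the Benjamini-Hochberg adjusted p was under 0.05 and the absolute log2 fold change at least 1. Of the 38 chains, 27 passed the filter and 11 did not, and a chain that passed through 1 high group had to differ somewhere, so the counts describe and do not test the family. Against Sertoli cells, 3 chains were higher in PTM, where 3.56% of all tested genes were, and 7 were lower, against 2.51%. Against Leydig cells, 2 were higher (6.53% of all genes) and 8 lower (4.57%). Against germ cells, 14 were higher (42.9%) and 6 lower (27.6%). Against VSMC, 2 were higher (12.6%) and 13 lower (6.37%), against ISMC 2 were higher (10.7%) and 15 lower (7%), and against TSMC 1 was higher (11.3%) and 16 lower (7.2%). The median log2 fold change of the 27 chains was -0.10 against Sertoli, -0.26 against Leydig, 1.43 against germ cells, -0.74 against VSMC, -1.40 against ISMC and -1.41 against TSMC. Over all tested genes it was 0.06, 0.10, 0.62, 0.19, 0.14 and 0.13 in the same order. The 6 comparisons share the PTM libraries and are not independent of one another. Genes higher in PTM made up 58.7 to 66.5% of all calls over the 6 comparisons, but 44.1 to 53.8% after quantile normalization and 39.6 to 49% after median log-ratio scaling. Under those rescalings the median over all tested genes shifted by -0.06 to -0.35 and by -0.10 to -0.78, most in the germ cell comparison.

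**Figure D3:**
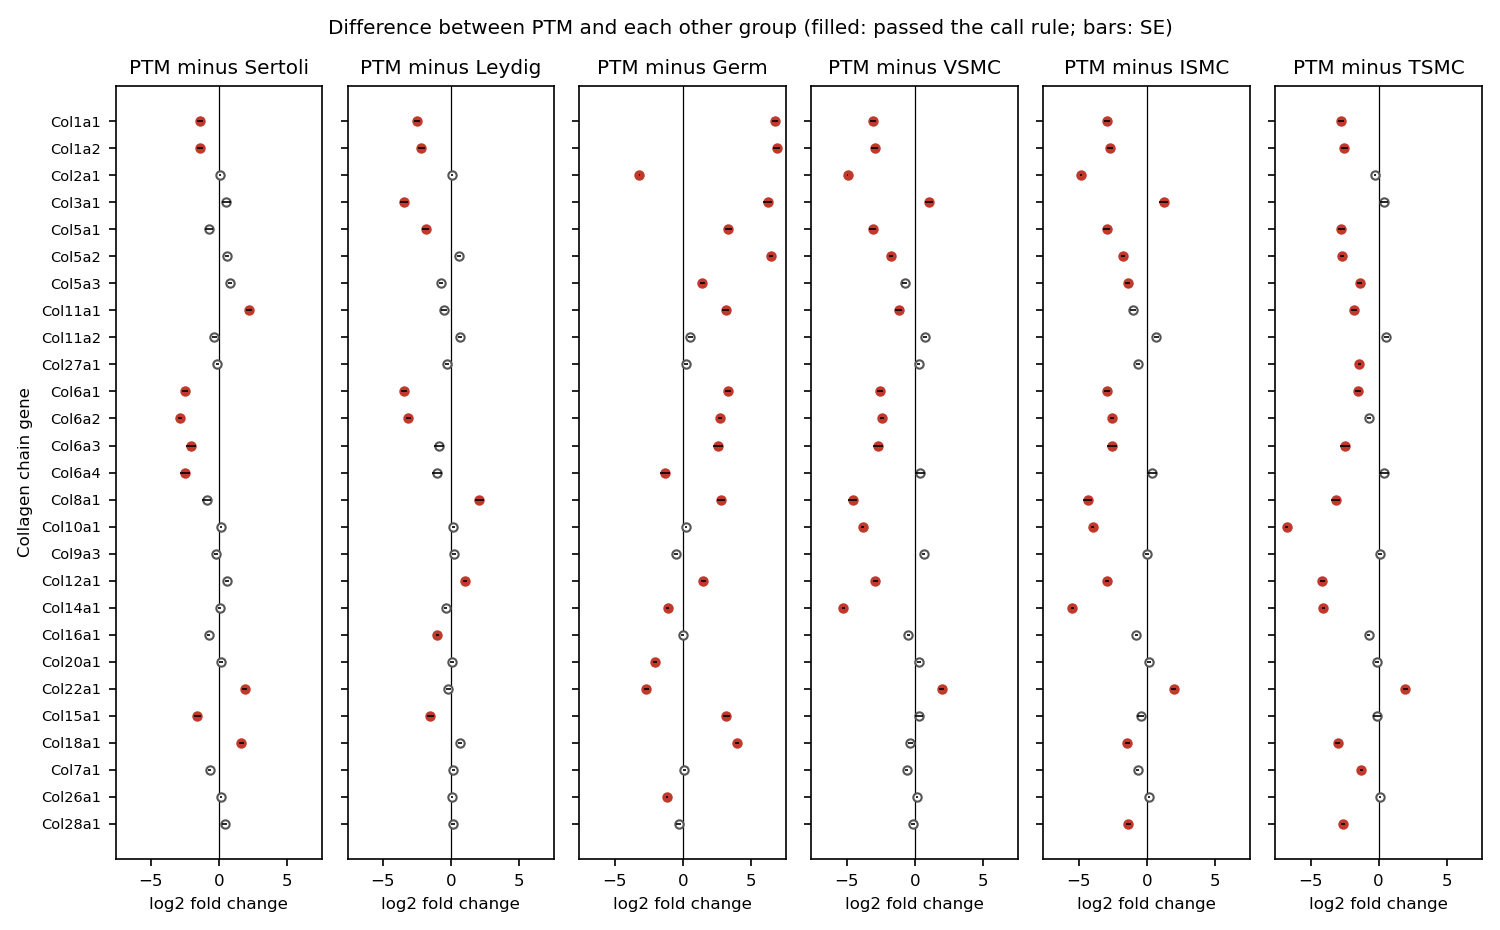
Log2 fold change of PTM minus each other group for the 27 tested chains, with standard errors as bars. Filled points passed the adjusted p and fold change thresholds. Most filled points lie left of 0 against the smooth muscle groups and right of 0 against germ cells.

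Type I collagen, 2 Col1a1 chains and 1 Col1a2 chain per molecule, was the most abundant type by mean in every group but germ cells. Col1a1 (chr11:94936224-94953042, mm10) had 210.4, 185 and 216 FPKM in PTM, 648, 369.8 and 608 in Sertoli, 1237, 1249.6 and 976 in Leydig and 1.42, 1.25 and 0.22 in germ cells. It had 1712, 1855 and 1609 FPKM in VSMC, 1542, 1582 and 1477 in ISMC and 1389, 1330.4 and 1378 in TSMC. The 3 PTM libraries lay below all Sertoli, Leydig and smooth muscle libraries, and germ cells were far below PTM. PTM was lower than VSMC (log2 fold change -3.08, SE 0.21, limma adjusted p = 1.89e-09), ISMC (-2.91, limma adjusted p = 4.13e-09) and TSMC (-2.74, adjusted p = 8.48e-09). PTM was also lower than Sertoli (log2 fold change -1.37, SE 0.21, limma adjusted p = 0.000131) and Leydig cells (-2.49, adjusted p = 7.78e-08), and higher than germ cells (6.76, adjusted p = 1.13e-15).

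Col1a2, the partner chain, had 196, 207 and 207 FPKM in PTM, 709, 329 and 643 in Sertoli, 1064, 943 and 776 in Leydig and 1.27, 0.96 and 0.12 in germ cells, and 1592, 1638 and 1509.6 in VSMC, 1354, 1349 and 1318 in ISMC and 1181, 1156 and 1189 in TSMC. Every group stood on the same side of PTM as for Col1a1. PTM was lower, with log2 fold changes of -1.38 against Sertoli, -2.17 against Leydig, -2.95 against VSMC, -2.72 against ISMC and -2.53 against TSMC, all called. The ratio of Col1a1 to Col1a2 FPKM averaged 1.003 ± 0.0984 in PTM, 0.995 ± 0.113 in Sertoli, 1.25 ± 0.0819 in Leydig, 1.09 ± 0.0358 in VSMC, 1.14 ± 0.0268 in ISMC and 1.16 ± 0.0133 in TSMC (SD, n = 3 libraries each). Chain RNA was thus near 1 to 1 per length in PTM, and the protein takes 2 Col1a1 chains for each Col1a2 chain.

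Type III, a homotrimer of Col3a1 that mixes with type I in pliable tissue, had a different order over the groups. Col3a1 (chr1:45311538-45349706) had 211, 91.3 and 189.6 FPKM in PTM, 141, 61.05 and 133 in Sertoli, 1983, 1983 and 1241 in Leydig and 1, 1.63 and 0.67 in germ cells. It had 80.4, 79.7 and 66.2 FPKM in VSMC, 63.95, 64.9 and 64.7 in ISMC and 116, 116 and 120.3 in TSMC. PTM and Sertoli libraries overlapped, as did PTM and TSMC, in each case through PTM replicate 2. Leydig cells stood alone at the top, and PTM was lower (log2 fold change -3.45, SE 0.31, limma adjusted p = 1.04e-07). PTM was higher than VSMC (log2 fold change 1.03, SE 0.31, limma adjusted p = 0.00724) and ISMC (log2 fold change 1.24, SE 0.31, limma adjusted p = 0.00193). The call against VSMC was lost without PTM replicate 1 (0.80) or 3 (0.88) or VSMC replicate 3 (0.94), and under both rescalings (0.70 and 0.76). The call against ISMC was lost after quantile normalization (0.95). Fibroblast markers (Pdgfra, Dcn, Lum, Cd34, Clec3b and Pi16) summed to 65.16 to 84.14 FPKM in PTM, against 40.44 to 113.8 in Sertoli and 695.6 to 1354 in Leydig libraries, where all 6 were at 1 FPKM or more. The same sum was 30.85 to 36.91 FPKM in VSMC and 42.91 to 44.79 in ISMC, and in TSMC it was 18.31 to 18.77. Their part in the collagen values was not tested.

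The ratio of Col3a1 to Col1a1 FPKM sets the RNA of both fibrillar types side by side, and protein was not measured. It averaged 0.792 ± 0.266 in PTM (SD, n = 3 libraries each), 0.201 ± 0.0309 in Sertoli, 1.49 ± 0.188 in Leydig, 0.0437 ± 0.00295 in VSMC, 0.0421 ± 0.00150 in ISMC and 0.0860 ± 0.00200 in TSMC. The lowest PTM library, at 0.494, lay above the highest smooth muscle library, at 0.0873.

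Type V collagen nucleates fibrils. Col5a1 had 36.8, 21.4 and 32.4 FPKM in PTM, 68.3, 26.6 and 65.8 in Sertoli, 107, 142 and 85.4 in Leydig, 2.05, 2.2 and 1.72 in germ cells, 254, 271 and 259 in VSMC, 237, 240.1 and 224 in ISMC and 208, 201 and 206 in TSMC. Col5a2 had 117, 118 and 114 FPKM in PTM, 94.02, 55.9 and 88.7 in Sertoli, 78.2, 70.98 and 86.2 in Leydig, 0.45, 0.39 and 0.06 in germ cells, 393, 401 and 391 in VSMC, 399, 393 and 396 in ISMC and 765, 785 and 779 in TSMC. Col5a1 in PTM was lower than in Leydig cells (log2 fold change -1.86, SE 0.27, limma adjusted p = 2.05e-05), whereas every PTM library was above every Sertoli and Leydig library for Col5a2, by 0.58 and 0.57 on the log2 scale, under the fold threshold. The ratio of Col5a1 to Col5a2 averaged 0.260 ± 0.0704 in PTM, 0.649 ± 0.149 in Sertoli, 1.46 ± 0.513 in Leydig, 0.662 ± 0.0154 in VSMC, 0.590 ± 0.0230 in ISMC and 0.264 ± 0.00765 in TSMC. Against smooth muscle both chains were lower in PTM, with log2 fold changes for Col5a1 of -3.11, -2.95 and -2.76 and for Col5a2 of -1.75, -1.76 and -2.72 against VSMC, ISMC and TSMC in turn. Col5a3, the remaining chain of the type, averaged 1.85 ± 0.647 FPKM in PTM, against 6.38 ± 0.356 in ISMC and 6.38 ± 0.137 in TSMC, its highest levels, and was lower in PTM than in ISMC (-1.40, limma adjusted p = 2.49e-06) and TSMC (-1.40, adjusted p = 2.40e-06). Against Sertoli, Col5a1 was not called (-0.73) but was without Sertoli replicate 2 (-1.16). Col5a2 lies tail to tail with Col3a1 on chromosome 1, 24624 bases apart with no other measured gene between, and the pair had unlike orders over the groups.

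Col11a1, a chain of cartilage fibrils that can also join type V molecules, was higher in PTM than in Sertoli cells. It had 8.59, 9.47 and 9.56 FPKM in PTM, 1.93, 0.31 and 1.81 in Sertoli, 11.2, 10.4 and 20.3 in Leydig and 0.15, 0.16 and 0.13 in germ cells, and 22.7, 23.4 and 20.9 in VSMC, 20.1, 18.8 and 19.2 in ISMC and 34.7, 36.7 and 33.8 in TSMC. PTM was higher than Sertoli in all 3 libraries (log2 fold change 2.21, SE 0.24, limma adjusted p = 2.36e-06) and lower than VSMC (log2 fold change -1.19, SE 0.24, limma adjusted p = 0.000309) and TSMC (-1.82, adjusted p = 4.07e-06). Against ISMC the difference of -0.999 fell just short of the fold threshold. That call was made without PTM replicate 2 (-1.02) or 3 (-1.02) or ISMC replicate 2 (-1.02) or 3 (-1.01), with a pseudocount of 0.1 (-1.07) and after quantile normalization (-1.31) or median scaling (-1.21). Col2a1, the cartilage fibril chain that pairs with type XI there, was under 0.1 FPKM in every somatic testicular library, with 0.06, 0.09 and 0.07 FPKM in PTM, 0.01, 0 and 0.02 in Sertoli and 0.03, 0.01 and 0.03 in Leydig. Germ cells held 8.61, 8.59 and 9.12 FPKM, VSMC 30.8, 33.98 and 31.3, ISMC 29.7, 29.6 and 28.7 and TSMC 0.23, 0.23 and 0.39. TSMC thus lay far below the other smooth muscle groups. Col2a1 was lower in PTM than in VSMC (log2 fold change -4.94, SE 0.06, limma adjusted p = 3.95e-19), ISMC (-4.82, adjusted p = 4.00e-19) and germ cells (-3.19, adjusted p = 9.78e-19).

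Other cartilage genes were read beside Col2a1. Acan, the main cartilage proteoglycan, had 4.15, 6.67 and 4.92 FPKM in PTM, 4.56, 5.74 and 4.73 in VSMC and 6.72, 6.02 and 5.7 in ISMC. In VSMC and ISMC, Matn1, Hapln1, Comp and Cnmd were each under 1 FPKM in all 6 libraries. In PTM, Matn1 and Hapln1 were listed at 0 in all 3 libraries. In germ cells the cartilage list summed to 147.4 to 199.4 FPKM, most of it Comp, with 178, 126 and 176 FPKM, and Matn1 was at 0. Their part in the Col2a1 values was not tested.

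**Figure D4:**
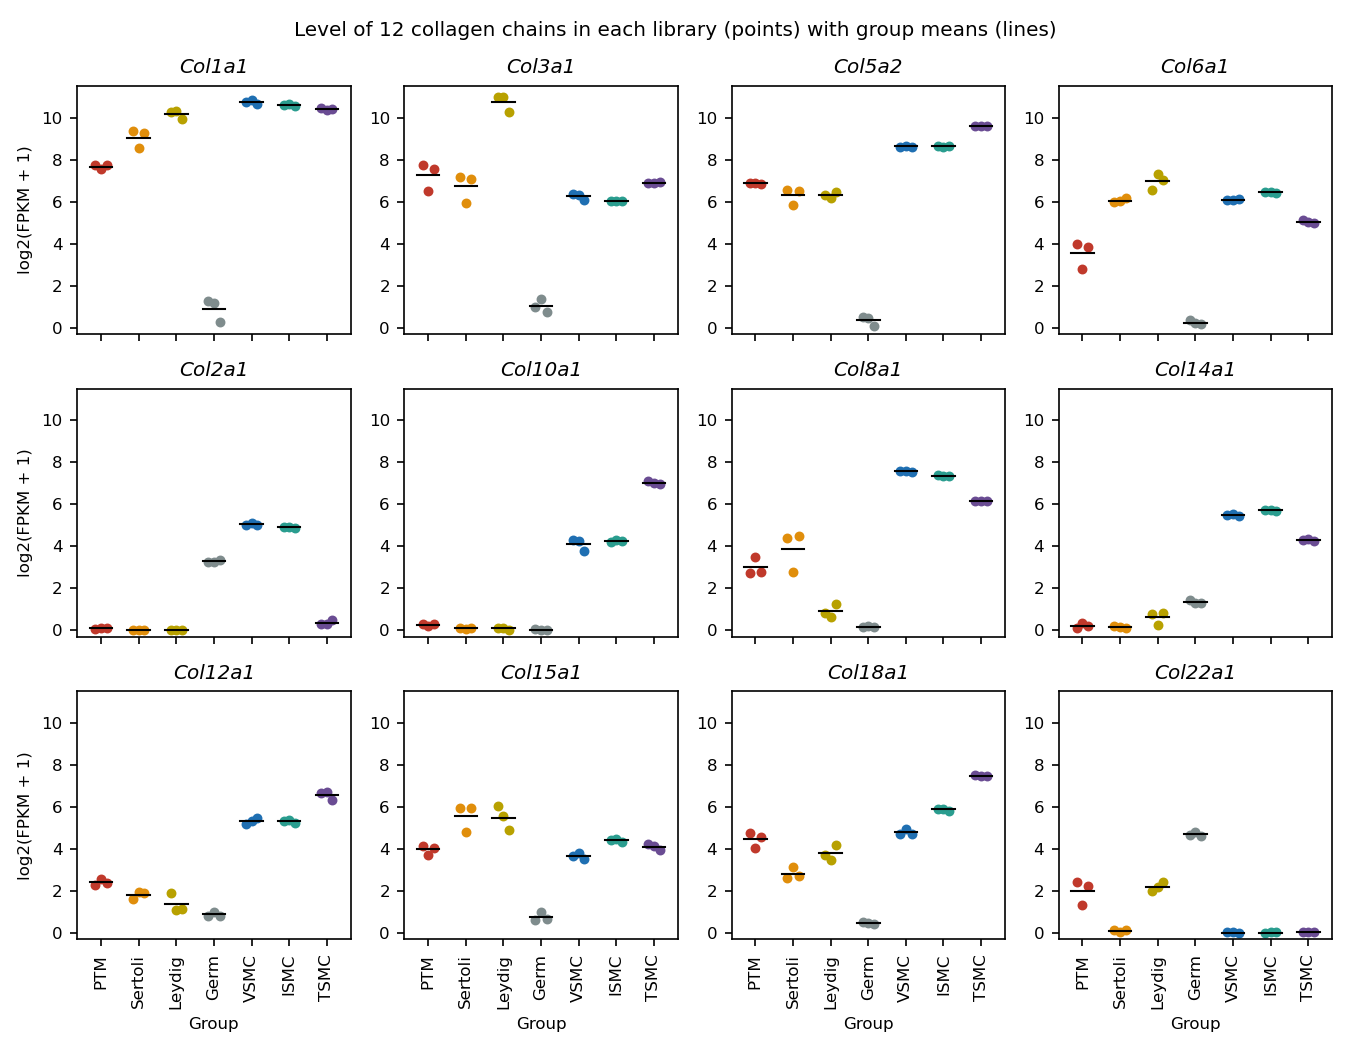
Level of 12 chains as log2(FPKM + 1) in each library (points, coloured by group) with the mean of each group (line), PTM at the left. Col3a1 is highest in Leydig cells, Col2a1 is high in germ cells, VSMC and ISMC, Col10a1 is highest in TSMC, and Col22a1 is highest in germ cells.

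Type VI collagen links cells to the fibrils around them. Its Col6a1 chain had 15.01, 6.01 and 13.4 FPKM in PTM, 61.6, 64.3 and 70.6 in Sertoli, 92.4, 157 and 132 in Leydig, 0.28, 0.16 and 0.12 in germ cells, 65.9, 66.96 and 68.6 in VSMC, 86, 87.4 and 84.6 in ISMC and 34.4, 31.5 and 31.1 in TSMC. Col6a2 had 10.01, 4.95 and 7.74 FPKM in PTM, 54.5, 60.9 and 58.6 in Sertoli, 61.5, 82.97 and 70.1 in Leydig, 0.23, 0.28 and 0.25 in germ cells, 42.2, 43.5 and 42.9 in VSMC, 48.2, 50.1 and 45.7 in ISMC and 13.7, 11.8 and 12.3 in TSMC. For both chains PTM libraries lay below those of every other somatic group, and PTM replicate 2 was the lowest. PTM was lower than Sertoli for Col6a1 (log2 fold change -2.50, SE 0.22, limma adjusted p = 2.68e-07) and Col6a2 (log2 fold change -2.83, SE 0.15, limma adjusted p = 6.98e-10), and lower than Leydig for both, at -3.41 and -3.12. Against VSMC the log2 fold changes of Col6a1 and Col6a2 were -2.54 and -2.40, and against ISMC -2.89 and -2.56, all called. Against TSMC, Col6a1 was lower in PTM (log2 fold change -1.504, SE 0.22, limma adjusted p = 1.48e-05), and Col6a2, at -0.71, was under the fold threshold.

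The 2 genes lie 85387 bases apart on chromosome 10 (chr10:76595756-76623404 and chr10:76708792-76726044), read in the same direction with no measured gene between them, behind the unlike start regions shown above. Their FPKM ratio, Col6a1 over Col6a2, averaged 1.48 ± 0.259 in PTM (SD, n = 3 libraries each), 1.13 ± 0.0745 in Sertoli, 1.76 ± 0.222 in Leydig, 1.57 ± 0.0310 in VSMC, 1.79 ± 0.0553 in ISMC and 2.57 ± 0.0950 in TSMC. TSMC libraries all lay above those of the other somatic groups.

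Col6a3, the largest chain of the type VI molecule and a gene of another chromosome, had 7.88, 3.55 and 7.07 FPKM in PTM, 39.2, 13.96 and 37.9 in Sertoli, 23.9, 9.96 and 6.73 in Leydig, 0.12, 0.2 and 0.1 in germ cells, 42.6, 42.9 and 49.2 in VSMC, 41.3, 42.1 and 37.5 in ISMC and 38.9, 37.8 and 33.6 in TSMC. Col6a3 was lower in PTM than in Sertoli (log2 fold change -2.05, SE 0.37, limma adjusted p = 0.000488), VSMC (-2.73), ISMC (-2.58) and TSMC (-2.45), the last 3 also called. The ratio of Col6a3 to Col6a1 averaged 0.548 ± 0.0372 in PTM, 0.463 ± 0.219 in Sertoli, 0.124 ± 0.117 in Leydig, 0.668 ± 0.0430 in VSMC, 0.468 ± 0.0220 in ISMC and 1.14 ± 0.0593 in TSMC. Against Leydig, where the libraries overlapped, Col6a3 was not called (log2 fold change -0.90, SE 0.37, limma adjusted p = 0.0526). It was called lower in PTM without PTM replicate 1 (-1.08) or Leydig replicate 3 (-1.26) and under both rescalings (quantile -1.11, median -1.12). Among the chains that can stand in for Col6a3, Col6a4 had 0.43, 0.27 and 0.31 FPKM in PTM but 7.2, 5.34 and 6.92 in Sertoli cells, and PTM was lower (log2 fold change -2.48, SE 0.37, limma adjusted p = 7.82e-05). Col6a4 was uneven in Leydig libraries, at 0.18, 5.82 and 1.28 FPKM, and PTM was called lower without Leydig replicate 1 (-1.56) or 3 (-1.09) but not with all 3 (-0.98). Its neighbours on chromosome 9, Col6a5 and Col6a6, stayed under 1 FPKM in every group mean.

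**Figure D5:**
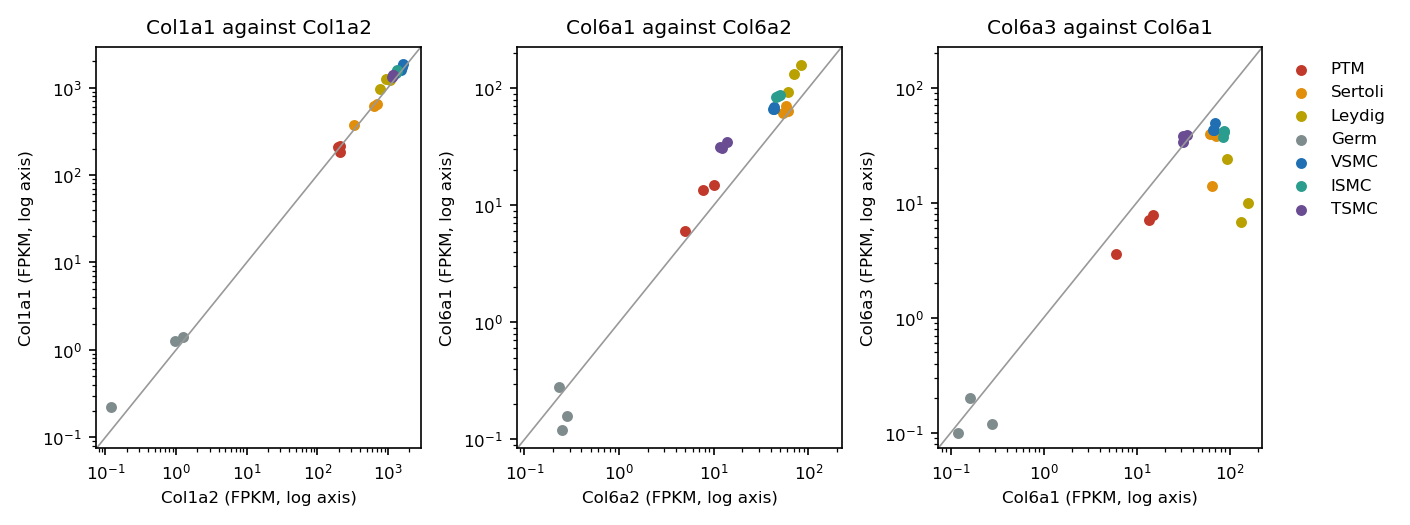
FPKM of chains that share a molecule, each point 1 library coloured by group, on log axes with the line of equal values. Col1a1 and Col1a2 lie near the line in all somatic groups, Col6a1 lies above Col6a2 in all somatic libraries, and Col6a3 falls well below Col6a1 in Leydig cells.

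The network chains Col8a1 and Col10a1 were lower in PTM than in each smooth muscle group. Type VIII lies in vessel walls, and its Col8a1 chain had 5.62, 10.1 and 5.97 FPKM in PTM, 20.3, 5.76 and 21.8 in Sertoli, 0.78, 0.56 and 1.37 in Leydig, 0.13, 0.15 and 0.11 in germ cells, 188, 189 and 186 in VSMC, 165, 159.9 and 161 in ISMC and 71.2, 70.5 and 70.6 in TSMC. Col8a1 was lower in PTM than in VSMC (log2 fold change -4.56, SE 0.32, limma adjusted p = 1.71e-09), ISMC (-4.35, adjusted p = 3.34e-09) and TSMC (-3.17, adjusted p = 1.69e-07), and higher than Leydig (log2 fold change 2.09, SE 0.32, limma adjusted p = 3.46e-05) and germ cells (2.82, adjusted p = 1.31e-07). PTM and Sertoli libraries overlapped, and that difference was not called (-0.89). It was called without Sertoli replicate 2 (-1.46) or PTM replicate 2 (-1.13), or without replicate 2 of PTM, Sertoli and germ cells together (-1.70). After quantile normalization it was called too (-1.02). The partner chain Col8a2 did not pass the filter, with a highest group mean of 0.357 FPKM in Leydig cells. Endothelial markers (Pecam1, Cdh5, Kdr, Tek and Emcn) summed to 30.97 to 50.96 FPKM in PTM. TSMC libraries held 21.6 to 24.75 FPKM of these markers, ISMC libraries 190 to 200.5 and VSMC libraries 198.6 to 215.9. Their part in the Col8a1 values was not tested.

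Col10a1, the chain of hypertrophic cartilage, had its highest level in TSMC. It had 0.24, 0.15 and 0.24 FPKM in PTM, 0.1, 0.05 and 0.1 in Sertoli, 0.1, 0.1 and 0.02 in Leydig and 0.05, 0.02 and 0.02 in germ cells, but 18.5, 17.8 and 12.5 in VSMC, 17.3, 18.6 and 18.1 in ISMC and 137, 127 and 125 in TSMC. Col10a1 was lower in PTM than in VSMC (log2 fold change -3.82, SE 0.10, limma adjusted p = 5.88e-15), ISMC (-3.98, adjusted p = 2.54e-15) and TSMC (-6.76, adjusted p = 1.34e-18), with no overlap. The gene lies wholly inside Nt5dc1, which is read from the opposite strand, and the sources used here do not say whether counting used strand, so reads of the 2 genes may not have been kept apart. Nt5dc1, looked at for that reason after its values were seen, had 5.37, 6.42 and 6.12 FPKM in PTM and 14.5, 12.1 and 13.1 in germ cells, its highest group. It had 2.68, 2.91 and 2.78 FPKM in VSMC, 3.23, 3.25 and 3.55 in ISMC and 3.42, 3.74 and 3.31 in TSMC. The part of Nt5dc1 reads in the Col10a1 values was not tested. Cartilage markers (Acan, Matn1, Matn3, Comp, Cnmd, Hapln1 and Sox5) summed to 5.65 to 7.87 FPKM in PTM and 4.96 to 6.39 in TSMC, most of it Acan, with Matn1 at 0 in both. The bone regulator Sp7 was at or under 0.07 FPKM in every library, and Runx2, which also acts in hypertrophic cartilage, had 3.76, 3.05 and 3.29 FPKM in PTM and 4.37, 4.36 and 4.14 in TSMC. The osteoblast list (Sp7, Ibsp, Bglap and Runx2) summed to 3.28 to 3.79 FPKM in PTM and 4.16 to 4.56 in TSMC.

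The FACIT chains Col12a1 and Col14a1, which coat type I fibrils in tendon, skin and muscle, were lower in PTM than in each smooth muscle group. Col12a1 had 3.83, 4.97 and 4.18 FPKM in PTM, 2.03, 2.87 and 2.75 in Sertoli, 2.72, 1.14 and 1.19 in Leydig, 0.78, 1.02 and 0.76 in germ cells, 34.9, 38.6 and 43.3 in VSMC, 39.6, 40.3 and 36.8 in ISMC and 98.6, 102 and 79.9 in TSMC. Col14a1 had 0.08, 0.3 and 0.16 FPKM in PTM, 0.15, 0.12 and 0.09 in Sertoli, 0.7, 0.2 and 0.77 in Leydig, 1.74, 1.44 and 1.5 in germ cells, 43.8, 44.9 and 42.9 in VSMC, 52, 51.8 and 49.96 in ISMC and 18.7, 19.7 and 18.3 in TSMC. No PTM library came near a smooth muscle library for either chain. For Col12a1, PTM was lower than TSMC (log2 fold change -4.15, SE 0.17, limma adjusted p = 1.53e-12), VSMC (-2.91) and ISMC (-2.91). For Col14a1, PTM was lower than ISMC (log2 fold change -5.47, SE 0.11, limma adjusted p = 9.99e-17), VSMC (-5.25) and TSMC (-4.08), all called. Within the testis, Col12a1 was higher in PTM than in Leydig (log2 fold change 1.03, SE 0.17, limma adjusted p = 8.60e-05) and germ cells (log2 fold change 1.52, SE 0.17, limma adjusted p = 1.37e-07). The call against Leydig was lost without PTM replicate 2 (0.95) or Leydig replicate 2 (0.89) or 3 (0.91), and both were lost after either rescaling. Col14a1 was lower in PTM than in germ cells (-1.12, adjusted p = 2.97e-08).

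Col16a1, a FACIT chain found near cell surfaces and in fibroblasts, was the only chain of the 18 with 10 FPKM or more in all 21 libraries. It had 16.04, 15.5 and 15.7 FPKM in PTM, 23.6, 32.4 and 25.7 in Sertoli, 28.1, 33.4 and 37.7 in Leydig, 13.9, 17.3 and 15.8 in germ cells, 21.9, 23.5 and 22.1 in VSMC, 26.9, 28.4 and 27.7 in ISMC and 26.1, 25.6 and 28.6 in TSMC. PTM was lower than Leydig (log2 fold change -1.02, SE 0.11, limma adjusted p = 9.41e-07), a call lost without Leydig replicate 3 (-0.92). Against germ cells the difference was 0.01, and it turned negative after either rescaling.

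Col22a1, a FACIT chain known from the junction of muscle and tendon, had its highest level in germ cells. It had 4.46, 1.5 and 3.77 FPKM in PTM, 0.12, 0.02 and 0.09 in Sertoli, 3.02, 3.53 and 4.31 in Leydig and 24.2, 26.5 and 23.5 in germ cells, and at most 0.04 in any smooth muscle library. PTM was higher than Sertoli (log2 fold change 1.90, SE 0.19, limma adjusted p = 8.30e-07), VSMC (1.99, adjusted p = 7.39e-08), ISMC (1.98, adjusted p = 8.33e-08) and TSMC (1.97, adjusted p = 9.07e-08). It was lower than germ cells (log2 fold change -2.68, SE 0.19, limma adjusted p = 1.49e-10) and overlapped Leydig cells (-0.19, not called). Germ markers (Ddx4, Dazl, Ldhc, Prm1 and Prm2) summed to 6.63 to 12.6 FPKM in PTM and 3.13 to 5.17 in Leydig libraries, against 10580 to 11170 in germ cells. Skeletal muscle markers summed to 0.61 to 1.02 FPKM in PTM, 0.79 to 1.27 in germ cells and 281.7 to 296.5 in TSMC, where nearly all of it was Acta1, with Myod1 at 0 in germ cells and TSMC. The part of both lists in the Col22a1 values was not tested. Col20a1, another FACIT chain, had 0.63, 1 and 0.66 FPKM in PTM and 6.03, 7.01 and 6.14 in germ cells, and PTM was lower (log2 fold change -2.07, limma adjusted p = 4.19e-10).

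The multiplexins differed between PTM and Sertoli cells in opposite directions. Col15a1, which anchors basement membranes to the matrix beneath, had 16.8, 12.1 and 15.5 FPKM in PTM, 60.8, 27.1 and 59.6 in Sertoli, 63.7, 46.3 and 28.3 in Leydig, 0.52, 1.03 and 0.6 in germ cells, 11.7, 13.02 and 10.6 in VSMC, 20.7, 21.1 and 19.03 in ISMC and 17.6, 16.4 and 14.4 in TSMC. Col18a1, the source of endostatin, had 26.4, 15.6 and 22.5 FPKM in PTM, 5.16, 7.69 and 5.55 in Sertoli, 12.1, 10.1 and 17.4 in Leydig, 0.42, 0.41 and 0.35 in germ cells, 25.5, 30.03 and 25.5 in VSMC, 59.4, 59.3 and 54.5 in ISMC and 181, 177 and 177 in TSMC. PTM libraries lay below Sertoli libraries for Col15a1 and above them for Col18a1. PTM was lower than Sertoli for Col15a1 (log2 fold change -1.59, SE 0.27, limma adjusted p = 0.000276) and higher for Col18a1 (log2 fold change 1.64, SE 0.18, limma adjusted p = 2.17e-06). Col15a1 was also lower in PTM than in Leydig (log2 fold change -1.51, SE 0.27, limma adjusted p = 0.000177) and was not called against any smooth muscle group, with differences of 0.30, -0.44 and -0.13 against VSMC, ISMC and TSMC. Col18a1 was lower in PTM than in TSMC (log2 fold change -3.02, SE 0.18, limma adjusted p = 1.77e-10) and ISMC (-1.41, adjusted p = 2.41e-06), and overlapped VSMC (-0.34, not called).

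Among the weaker chains, Col28a1, which is linked to peripheral nerve and its glia, had 0.09, 1.05 and 0.42 FPKM in PTM, 0.66, 0.65 and 0.57 in VSMC, 2.93, 2.72 and 2.55 in ISMC and 8.56, 7.91 and 8.09 in TSMC. PTM overlapped VSMC and was lower than TSMC (log2 fold change -2.64, SE 0.16, limma adjusted p = 3.06e-10) and ISMC (-1.34, adjusted p = 1.46e-06). Sox10, a glial transcription factor given after its values were seen, had 0.02, 0 and 0.02 FPKM in PTM, 0.02, 0.06 and 0 in VSMC, 20.6, 22.4 and 17.2 in ISMC and 26.6, 27.3 and 27.3 in TSMC. It is 1 of 5 listed glial markers, and as the others are not given here, it does not stand for that list. The part of Sox10 or of glial cells in the Col28a1 values was not tested. Col27a1, a fibrillar chain of cartilage, averaged 0.633 ± 0.0635 FPKM in PTM against 3.35 ± 0.240 in TSMC (log2 fold change -1.41, limma adjusted p = 1.91e-07). Col7a1, the anchoring fibril of skin, averaged 0.730 ± 0.111 FPKM in PTM against 3.21 ± 0.421 in TSMC (log2 fold change -1.28, adjusted p = 2.57e-08). The 11 chains that failed the filter were Col6a5, Col6a6, Col8a2, Col9a1, Col9a2, Col13a1, Col17a1, Col19a1, Col23a1, Col24a1 and Col25a1, with highest group means of 0.04 to 1.58 FPKM. Of these, 3 further chains are named after their values were seen. Col24a1, a fibrillar chain, had 0.12, 0.04 and 0.1 FPKM in PTM and 0.32, 2.32 and 2.1 in Leydig libraries. Col17a1, a membrane collagen of epithelial anchors, had 0.48, 1.4 and 0.63 FPKM in PTM, its highest group mean, and 0.06, 1.22 and 0.24 in Sertoli cells, so that replicate 2 was the highest library of both groups. Epithelial markers summed to 2.04 to 4.83 FPKM in PTM and 0.98 to 7.54 in Sertoli, with Krt5 and Krt14 at 0 in both. Among them Epcam had 0.96, 3.18 and 1.62 FPKM in PTM and 0.39, 4.13 and 0.88 in Sertoli, again highest in replicate 2, and their part in Col17a1 was not tested. Col25a1, a membrane collagen, had at most 0.02 FPKM in PTM and 0.52, 0.45 and 0.4 in ISMC. The remaining chains that passed, Col9a3, Col11a2 and Col26a1, had highest group means of 1.68, 2.02 and 1.51 FPKM. Col9a3 overlaps Tcfl5 on the opposite strand by 230 bases, so the limit on strand given for Col10a1 holds for it too. Tcfl5, read after its values were seen, had 0.35, 0.69 and 0.2 FPKM in PTM and 219.5, 201 and 219.6 in germ cells, the group with the highest Col9a3 mean. The part of Tcfl5 reads in the Col9a3 values was not tested.

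The smooth muscle groups were also compared with each other. Between VSMC and ISMC, limma called 0 of 27 chains higher in VSMC (0% of all tested genes) and 2 lower (0.831%), with 0 chains and 73 genes higher at an unadjusted p under 0.05. The 2 were Col18a1 (log2 fold change -1.07, SE 0.18, limma adjusted p = 0.00127) and Col28a1 (-1.20, adjusted p = 0.000135). Between VSMC and TSMC, 5 were higher in VSMC (2.1% of all genes) and 5 lower (2.48%). Between ISMC and TSMC, 5 were higher in ISMC (2.73%) and 4 lower (1.43%). Col2a1 was higher in VSMC (log2 fold change 4.69, SE 0.06, limma adjusted p = 1.85e-18) and ISMC (4.57, adjusted p = 1.49e-18) than in TSMC. Col10a1 was lower in VSMC (log2 fold change -2.94, SE 0.10, limma adjusted p = 3.56e-13) and ISMC (-2.78, adjusted p = 1.14e-12) than in TSMC. The type VI pair was higher in VSMC than in TSMC, Col6a1 by 1.03 and Col6a2 by 1.69, and Col18a1 was lower, at -2.68. Col5a2, at -0.97 for ISMC minus TSMC, had separate libraries but was just under the fold threshold, and it passed after quantile normalization (-1.07).

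Between Sertoli and Leydig cells, 4 of 27 chains were higher in Sertoli (6.32% of all genes) and 6 lower (6.56%), among them, lower in Sertoli, Col3a1 (log2 fold change -4.00, SE 0.31, limma adjusted p = 1.18e-08) and, higher in Sertoli, Col8a1 (2.99, adjusted p = 5.87e-07). Without Leydig replicate 1, 2 chains were higher in Sertoli. The share of all genes at that setting is not given here, so this count is not read as a result about the chains.

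The order of levels could be read only in part. For Col1a1, neighbours in the order VSMC, ISMC, TSMC and Leydig were not called apart (limma adjusted p = 1, 0.773 and 0.335), although their libraries did not overlap. Below them, Sertoli cells were lower than Leydig (-1.12, adjusted p = 0.000331; not called without Sertoli replicate 2, at -0.87, or after quantile normalization, at -0.93), PTM lower than Sertoli, and germ cells lowest. For Col3a1, Leydig cells came first, and PTM, TSMC, Sertoli, VSMC and ISMC followed with no neighbours called apart. For Col15a1, Sertoli and Leydig overlapped at the top, and ISMC, TSMC, PTM and VSMC followed with no neighbours called apart.

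Genes that make, process, crosslink and bind collagen were read from a list of 60, of which 54 passed the filter. Against Sertoli cells 4 were higher in PTM (3.56% of all tested genes) and 7 lower (2.51%). The list median was 0.05 beside 0.06 over all tested genes. Higher were Thbs2, a matricellular regulator of fibril assembly (34.04 FPKM in PTM and 2.73 in Sertoli, log2 fold change 3.16, limma adjusted p = 0.000196), and the lysyl oxidase Loxl2 (2.25, adjusted p = 6.04e-11). Aebp1, which binds collagen and aids fibril assembly, was also higher (1.16), at 322, 143 and 282 FPKM in PTM and 75.3, 165 and 92.7 in Sertoli. Its libraries overlapped, and the call was lost without PTM replicate 1 (0.93) or Sertoli replicate 1 (0.92), with a pseudocount of 0.1 and with the 6 libraries alone. Lower were the collagen receptor chain Itga1 (-2.02), the crosslinking enzyme Loxl1 (-1.65), the N-propeptidase Adamts2 (-1.49) and the collagen chaperone Serpinh1 (-1.14), the last not called without Sertoli replicate 1 (-0.91) or with the 6 libraries alone. Against Leydig cells 1 was higher (6.53% of all tested genes) and 15 lower (4.57%), with a median of -0.51 beside 0.10. Lower by most were the fibril-binding proteins Dcn, at 51.2 FPKM in PTM and 816 in Leydig (-3.91, adjusted p = 3.66e-07), Dpt (-3.65) and Tnxb (-2.41), and Adamts2 (-2.37). Dcn also stands in the fibroblast list. Against germ cells limma called 41 higher (42.9% of all tested genes) and 0 lower (27.6%), with 1 lower at an unadjusted p under 0.05. The median was 3.49 beside 0.62. Higher by most were Sparc, which binds collagen (8.22), the fibril-binding proteoglycan Bgn (7.91), Serpinh1 (7.87) and the crosslinking enzyme Lox (7.19).

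Against the smooth muscle groups the same list was mostly lower in PTM where it was called. Against VSMC 4 were higher (12.6% of all tested genes) and 20 lower (6.37%), with a median of -0.40 beside 0.19 over all genes. Against ISMC 3 were higher (10.7%) and 19 lower (7%), with a median of -0.43 beside 0.14. Against TSMC 5 were higher (11.3%) and 20 lower (7.2%), with a median of -0.72 beside 0.13. Postn, periostin, which recruits crosslinking enzymes to collagen, had 4.27 FPKM in PTM, against 229 in VSMC (-5.46, limma adjusted p = 7.17e-09), 244 in ISMC (-5.55, adjusted p = 6.10e-09) and 190.5 in TSMC (-5.20, adjusted p = 1.38e-08). The C-propeptidase Tll1 had 0.490 FPKM in PTM, against 43.5 in VSMC, 40.05 in ISMC and 52.1 in TSMC, log2 fold changes of -4.90, -4.78 and -5.15. The collagen uptake receptor Mrc2 was lower too, at -4.69, -4.44 and -4.62 against VSMC, ISMC and TSMC. In the other direction, Dcn was higher in PTM by 3.60 against VSMC, 2.14 against ISMC and 2.17 against TSMC. The collagen receptor kinase Ddr1 was higher by 1.54, 1.35 and 1.58, and Creb3l1, a transcription factor of collagen secretion, by 1.02, 1.197 and 1.42, all called. For Creb3l1 the call against VSMC was lost without PTM replicate 1 (0.84) or 3 (0.86) or VSMC replicate 3 (0.97), and those against VSMC and ISMC after either rescaling (0.69 and 0.75 for VSMC, 0.90 and 0.98 for ISMC). Macrophage markers summed to 66.21 to 109.1 FPKM in PTM and 206.8 to 233.1 in VSMC, with 417.2 to 583 in ISMC but 9.23 to 10.94 in TSMC, and their part in these differences was not tested.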

How the data were processed

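RNA of 21 libraries, 3 in each of 7 groups of untreated cultured mouse cells, was read as gene expression. The authors deposited 1 table with FPKM values per gene and library. The submitters' processing notes list RSEM 1.2.12, Bowtie2 2.2.5, HISAT2 2.0.4 and the build mm10, with no roles or order, and whether counting used strand is not given in the sources used here. Coordinates are those of that table. No read counts were used, so depth is an estimate from FPKM steps of genes with a single transcript, of 800 to 1500 bases, less 50 bases. At that setting 87.84 to 95.77% of low values were whole reads within 0.2. The depth of each library was the one that gave the highest such share, and the 50 bases were also chosen by this share. The 40% by chance holds for a fixed depth and is therefore not a fair comparison.

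Members were the 38 collagen chain symbols other than type IV. Members, gene lists and the naming rule were chosen with earlier results of these data known. The rule prints each library for chains with a group mean of 10 FPKM or more, names weaker chains called with a mean of 3 or more or of a described type, and names up to 4 called assembly genes at each extreme with 10 FPKM or more. The text states where a gene was named after its values were seen.

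Values were taken as log2(FPKM + 1), and genes with 1 FPKM or more in 3 or more libraries were fitted with limma 3.58.1 (trend, R 4.3.3), with a mean for each group and 14 residual degrees of freedom. Adjusted p-values are two-sided and Benjamini-Hochberg adjusted over all tested genes within a comparison. The added 1 understates fold changes of low genes. The procedure was tested on simulated data. Same-numbered libraries of PTM and Sertoli cells deviated together (correlations of 0.227, 0.250 and 0.103), and no other of the 21 group pairs had all 3 above 0.1. Those of Sertoli and Leydig cells were negative, at -0.266, -0.375 and -0.0723, so the PTM and Sertoli values do not stand out by size. Only same-numbered libraries were compared, and replicate 2 stood apart in both PTM and Sertoli cells. A pairing of libraries is therefore not established, and the labels state none.

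Alternatives were a pseudocount of 0.1, no filter, quantile normalization, median log-ratio scaling, the 6 libraries of a pair alone, no germ cell libraries, a replicate block, and each library left out. Promoter letters come from RefSeq on GRCm38.p6, where 30 of 38 chains were matched. Col1a1, Col2a1, Col5a2, Col9a3, Col12a1, Col14a1, Col22a1 and Col26a1 were not. The summed level of 1 marker list is not reported here.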

Additional observations from a re-analysis of the deposited data

How the results depend on the processing

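Of 108 comparisons of a chain at 10 FPKM or more with another group, 78 were called, and 73 of those calls held under every alternative run. These chains were picked for a high mean in some group, so many calls are built in and the count does not test them. Of all tested genes, 3.56 to 42.9% were called higher in PTM and 2.51 to 27.6% lower, depending on the comparison. With a pseudocount of 0.1, the chains higher in PTM numbered 5 against Sertoli, 6 against VSMC, 5 against ISMC and 3 against TSMC. The share of all tested genes higher at that setting was 6.38% against Sertoli, 19.3% against VSMC, 16.1% against ISMC and 16.9% against TSMC. After quantile normalization 1 was higher than in Leydig, 1 than in VSMC and 1 than in ISMC, and after median log-ratio scaling 1 than in Leydig and 1 than in VSMC. Of all genes, 4.92%, 8.24% and 7.74% were higher than in Leydig, VSMC and ISMC after quantile normalization, and 4.29% and 8.2% than in Leydig and VSMC after median scaling. Leaving out a library gave 3 to 4 higher and 7 to 9 lower against Sertoli, 1 to 2 and 8 to 9 against Leydig, 14 and 6 against germ cells, 1 to 2 and 13 against VSMC, 2 and 15 to 16 against ISMC, and 1 and 16 against TSMC. Of all tested genes, 3.06 to 4.89% were then higher and 2.3 to 3.03% lower against Sertoli, and 6.06 to 7.98% and 4.02 to 4.98% against Leydig. Against germ cells the shares were 42.6 to 43.2% and 27.5 to 27.7%, and against VSMC 12.4 to 12.9% and 6.22 to 6.51%. They were 10.5 to 10.8% and 6.87 to 7.23% against ISMC, and 11.2 to 11.6% and 6.99 to 7.33% against TSMC. The count against Leydig was 1 without PTM replicate 2, Leydig replicate 2 or Leydig replicate 3, and that against VSMC was 1 without PTM replicate 1, PTM replicate 3 or VSMC replicate 3. Without replicate 2 of PTM, Sertoli and germ cells together, an alternative chosen after seeing the data, 1 was higher than in Leydig, and 4 were higher and 8 lower than in Sertoli. Of all tested genes, 6.08% were higher than in Leydig at that setting, and 4.76% were higher and 2.77% lower than in Sertoli. The fits with the replicate block for PTM and Sertoli gave 3 higher and 7 lower, as without it, and changed no call of a chain at 10 FPKM or more. With the block over all libraries, 3.52% of all tested genes were higher and 2.48% lower. With the block in the 6 libraries of the pair, 2.9% were higher and 2.15% lower.

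Reversals concerned differences that were not called with the main settings. Col14a1 against Sertoli was -0.0133 after quantile normalization, -0.0317 after median scaling, -6e-04 without PTM replicate 2 and -4e-04 without all 3 of those libraries, within a range of -6e-04 to 0.1332 when 1 library was left out. Col16a1 against germ cells was -0.183 and -0.7669 after the rescalings, with a range of -0.0657 to 0.084 (-0.0657 without germ cell replicate 1). The value of -0.7669 had a limma adjusted p = 3.34e-06 but was under the fold threshold. Median scaling gave -0.0154 for Col2a1 against Sertoli, -0.0453 for Col10a1 and -0.1494 for Col2a1 against Leydig, and -0.5484 for Col10a1 against germ cells (limma adjusted p = 9.53e-05). With a pseudocount of 0.1, Col10a1 was instead called higher in PTM than in germ cells (1.25, limma adjusted p = 1.80e-05). Its means there were only 0.21 FPKM in PTM and 0.03 in germ cells. Col22a1 against Leydig was 0.153, and Col15a1 against TSMC 0.0043, without PTM replicate 2 and without all 3, with ranges of -0.4105 to 0.153 and -0.2173 to 0.0043.

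All alternatives for the assembly genes were added after seeing the data. A pseudocount of 0.1 gave 2 assembly genes higher than in Leydig (11.1% of all tested genes) and 1 lower than in germ cells (29.3%). Quantile normalization gave 1 lower than in germ cells (30.9%) and 3 higher than in TSMC (8.34%). Median scaling gave 2 (36.4%) and 3 (8.35%), and the 6 libraries alone gave 4 lower than in Sertoli (2.23%). The causes of these shifts were not tested. Between groups other than PTM, chains lower in VSMC than ISMC numbered 4 with a pseudocount of 0.1, and those higher in Sertoli than Leydig 2 with the 6 libraries alone. Shares of all genes at these settings are not given here, so the counts are not read as a result about the chains. Depth limits the low chains, in the shortest of which 1 FPKM stands for about 52 fragments.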
